A study of Mus musculus with 4 samples.

Results

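Microglia from the ventromedial prefrontal cortex (vmPFC) of adult mice were divided by their transcripts of Tnf and Il1b, the genes of the inflammatory cytokines tumour necrosis factor and interleukin-1β, and the rest of the transcriptome was compared between cells with and without them. The rule took cells of the 3 unsorted single-cell libraries that were absent from the authors' table of excitatory neurons. They had to have 500 to 8000 genes, 1000 to 60000 unique molecular identifiers (UMIs, counted transcripts) and under 20% of UMIs from mitochondrial genes. A microglial cell had at least 5 UMIs summed over Cx3cr1, P2ry12, Tmem119 and Csf1r, at most 2 over Slc17a7, Gad1 and Gad2, at most 2 of Cldn5 and at most 2 over Mog and Mag. Of the 24801 cell barcodes of the series, 19472 were filtered cells of the unsorted libraries and 2949 of these were microglia by the rule. Cytokine-positive microglia carried 3 or more Tnf and Il1b UMIs and numbered 454, 406 and 395 in unsorted libraries 1, 2 and 3. Cytokine-zero microglia carried 0 and numbered 366, 345 and 342. Together these 2308 cells were the members, and the 641 microglia with 1 or 2 cytokine UMIs belonged to neither group.

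Both groups came from the same C57BL/6 male mice, whose labels give an age of 8 weeks and which had all been injected with barcoded retrograde viruses expressing EGFP in projection targets of the vmPFC. By the study's methods the mice were 8 weeks old when injected, and tissue was taken 6 weeks after the injection. No uninjected animal was among the samples, so both groups share the injection. They also share the tissue preparation, in which slices were held with 10 µM CNQX and 50 µM D-AP5 at 33 °C for 30 min, digested with papain at 37 °C for 30 to 40 min and then treated with protease and dispase at 25 °C for 30 min. The titles name 1 mouse for each unsorted library and the protocol describes loading into 3 lanes, so the spread between libraries, on which every p-value here rests, may be partly technical. A further library of EGFP-sorted cells pooled from several mice was not part of the comparison. The 3 unsorted libraries held 7243 to 8040 cell barcodes and 83065993 to 87841541 UMIs. Pairs of them shared 11 to 30 barcode sequences, of which 1 was shared between microglia (libraries 2 and 3).

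Microglia are the resident macrophages of the brain. In macrophages, pattern recognition and cytokine receptors activate the transcription factors NF-κB and AP-1, which switch on Tnf, Il1b, chemokines and prostaglandin synthesis. The same factors also switch on their own brakes, among them the NF-κB inhibitors Nfkbia and Tnfaip3, the MAP kinase phosphatases of the Dusp family and the mRNA decay factor Zfp36. Interleukin-1β is made as an inactive precursor that inflammasomes cut, whereas TNF is shed from the cell surface.

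The promoters of the 2 genes that set the groups and of 4 of the genes that differed most between them are shown from RefSeq (GRCm38.p6), each from 250 bases before to 50 bases after the annotated start. They were searched on both strands for TGANTCA (an AP-1 site), the κB motif (a T-rich form of the NF-κB site), TGACGTCA (a cyclic AMP response element) and the more degenerate NF-κB consensus, the last added after the data had been seen. Capitals mark matches. Tnf lies at chr17:35201958-35202257 (minus strand) and Il1b at chr2:129371090-129371389 (minus strand), and neither window holds a match. The windows of Ckap2l, at chr2:129297163-129297462 (minus strand), and Tnfaip2, at chr12:111442411-111442710 (plus strand), match the NF-κB consensus. That of Bcl2a1d, at chr9:88731801-88732100 (minus strand), matches the AP-1 motif, and that of Ptgs2, at chr1:150099781-150100080 (plus strand), matches none. Nfkbia, at chr12:55492598-55492897 (minus strand), was added after its values were seen and matches both the κB motif and the NF-κB consensus, which overlap. No promoter entry was matched to Tnfsf9.
Tnf: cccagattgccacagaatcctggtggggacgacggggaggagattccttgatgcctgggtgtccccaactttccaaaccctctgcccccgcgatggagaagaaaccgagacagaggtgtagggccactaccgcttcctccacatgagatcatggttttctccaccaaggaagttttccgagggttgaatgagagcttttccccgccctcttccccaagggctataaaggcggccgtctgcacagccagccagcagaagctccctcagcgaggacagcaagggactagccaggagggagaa
Il1b: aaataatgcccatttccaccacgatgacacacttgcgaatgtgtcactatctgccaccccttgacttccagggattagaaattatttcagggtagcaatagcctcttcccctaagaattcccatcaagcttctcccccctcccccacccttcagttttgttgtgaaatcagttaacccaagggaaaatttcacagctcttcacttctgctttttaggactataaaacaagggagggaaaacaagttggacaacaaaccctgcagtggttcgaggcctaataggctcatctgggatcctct
Ckap2l: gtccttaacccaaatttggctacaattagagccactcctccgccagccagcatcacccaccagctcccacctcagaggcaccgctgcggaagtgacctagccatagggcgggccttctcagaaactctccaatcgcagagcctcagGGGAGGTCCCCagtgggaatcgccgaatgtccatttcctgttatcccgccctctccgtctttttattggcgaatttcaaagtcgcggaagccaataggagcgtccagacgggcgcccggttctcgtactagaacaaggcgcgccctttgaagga
Ptgs2: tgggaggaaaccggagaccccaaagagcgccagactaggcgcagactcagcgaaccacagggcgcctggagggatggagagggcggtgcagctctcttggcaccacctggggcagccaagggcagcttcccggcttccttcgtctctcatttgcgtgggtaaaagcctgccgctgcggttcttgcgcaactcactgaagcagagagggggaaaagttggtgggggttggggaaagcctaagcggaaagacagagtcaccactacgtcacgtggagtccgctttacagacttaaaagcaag
Bcl2a1d: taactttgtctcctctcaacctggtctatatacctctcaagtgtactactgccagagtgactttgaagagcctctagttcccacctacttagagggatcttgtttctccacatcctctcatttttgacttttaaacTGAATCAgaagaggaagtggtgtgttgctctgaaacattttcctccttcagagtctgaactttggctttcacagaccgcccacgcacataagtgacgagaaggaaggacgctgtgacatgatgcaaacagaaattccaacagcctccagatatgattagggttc
Tnfaip2: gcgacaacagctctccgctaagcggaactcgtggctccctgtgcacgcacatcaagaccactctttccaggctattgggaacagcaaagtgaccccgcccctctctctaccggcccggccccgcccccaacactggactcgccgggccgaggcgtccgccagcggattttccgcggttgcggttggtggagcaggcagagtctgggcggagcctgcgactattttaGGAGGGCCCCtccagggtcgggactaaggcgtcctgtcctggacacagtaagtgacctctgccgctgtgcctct
Nfkbia: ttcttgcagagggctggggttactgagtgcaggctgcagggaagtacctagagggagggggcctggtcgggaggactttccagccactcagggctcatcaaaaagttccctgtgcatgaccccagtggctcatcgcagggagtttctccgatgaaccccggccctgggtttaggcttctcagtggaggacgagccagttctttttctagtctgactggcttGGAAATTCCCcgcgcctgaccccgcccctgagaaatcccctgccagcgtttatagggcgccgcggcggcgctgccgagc

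Membership was chosen by the measured Tnf and Il1b UMIs of each cell, so the values of these genes are a description with no test. Cytokine-positive cells were 43.1%, 42.4% and 42.1% of the microglia of libraries 1, 2 and 3, a mean of 42.5% ± 0.491 (SD, n = 3), and the 95% Wilson intervals of the 3 shares ran from 39.0% to 46.1% (counting error only). Tnf was the more abundant of the pair. In the positive cells it had 1081, 1080 and 1126 CPM (UMIs of the gene as counts per 1000000 UMIs of the summed cells), and Il1b had 689, 774 and 594 CPM. Of 1255 positive cells, 595 had UMIs of both genes, 557 of Tnf alone and 103 of Il1b alone. The cytokine UMIs were spread over a continuous range without a gap at the limit of 3.

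**Figure D1:**
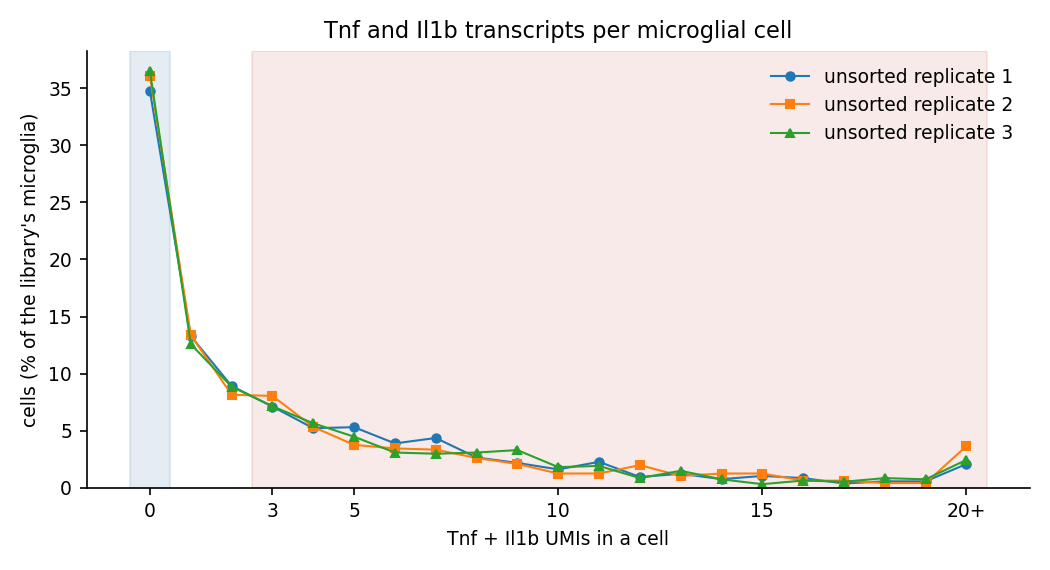
Distribution of the summed Tnf and Il1b UMIs per microglial cell, as a percentage of the microglia of each unsorted library (1 line per library, cells with 20 or more pooled at the right). The blue band marks cytokine-zero cells and the red band cytokine-positive cells; the 3 libraries overlay each other and the percentages decline without a gap at the limit of 3.

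Transcripts of both cytokines were much more frequent in microglia than in the 3 other cell classes examined. With every cell thinned to 2000 UMIs, 53.8% of microglia had a Tnf or Il1b UMI, against 0.258% of the authors' excitatory neurons, 0.934% of cells with over 2 UMIs of endothelial Cldn5 and 0.488% of cells with over 2 UMIs of the oligodendrocyte genes Mog and Mag, whatever their microglial UMIs. Unthinned, the same shares were 64.3%, 2.95%, 1.31% and 1.5%, at median depths of 4251, 22262, 3448 and 4848 UMIs. The limit of 3 UMIs was reached by 2 of 7765 excitatory neurons, by 9 of 2142 Cldn5 cells and by 10 of 1866 Mog and Mag cells. With the cells that also held a microglial UMI left out, 0 of 2027 and 0 of 1768 reached it, but that restriction also removes droplets with microglial RNA. Free RNA, doublets and transcripts of the cells themselves cannot be told apart in these classes.

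Depth differed between the groups. Positive cells had median totals of 4537.5, 4593 and 4840 UMIs in the 3 libraries and zero cells 3602, 3614 and 3790. A cell without these transcripts and a cell whose few transcripts were not captured cannot be told apart by the rule. Thinned to 2000 UMIs, 26.1% ± 1.16 (SD, n = 3) of the microglia still had 3 or more cytokine UMIs. The median mitochondrial share was 7.39% to 7.59% in positive and 6.45% to 6.54% in zero cells. Calls were therefore also made with cells paired by depth and with cells thinned to equal depth. The thinned calls kept the groups as set by the Tnf and Il1b UMIs before thinning. Calls between groups set anew after thinning were not tested.

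The label was checked against markers. The 4 genes that selected the cells summed to 7054 to 7328 CPM in positive and 8213 to 8538 CPM in zero cells (totals of the sums, before scaling). Neutrophil markers S100a8 and S100a9 were at 0 in both groups. Summed markers of border-associated macrophages (7 genes, among them Pf4, Mrc1 and Cd163) ranged from 100 to 210 CPM in positive and 244 to 388 CPM in zero cells. Astrocyte markers (4 genes) summed to 265 to 295 CPM in positive and 278 to 300 CPM in zero cells, and excitatory neuron markers (5 genes) to 151 to 156 and 155 to 161 CPM. Cells with over 2 UMIs of astrocyte or oligodendrocyte precursor markers were 18.9% to 20.5% of positive and 10.7% to 10.8% of zero cells, at the unequal depths given above. C1qa, a complement gene of microglia that the rule did not use, had 6894 to 7385 CPM over both groups (scaled by TMM). Both groups thus carried a microglial marker independent of the rule, and the border-associated macrophage signal was unequal between them. The part of that signal in the results was not tested beyond the comparisons without such cells given below.

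How far the rest of the transcriptome moved with the cytokines was asked by summing UMIs per library and group and testing 9208 genes with edgeR's quasi-likelihood test, the library as a block. Calls required a log2 fold change of 0.5 or more in either direction beside an adjusted p (Benjamini-Hochberg) below 0.05. Of the tested genes 418 were called (4.54%), 261 higher (2.83%) and 157 lower (1.71%) in cytokine-positive cells. The direction counts depend on the scaling: with library totals in place of TMM factors the median gene moved from -0.01 to -0.14 on the log2 scale and 189 genes were called higher and 351 lower. DESeq2 called 150 genes, 130 higher and 20 lower, and shared 149 of them with edgeR. Among the genes called higher, 184 of 261 were also called with cells thinned to 2000 UMIs, 221 with cells paired by depth within a library, and 222 without cells carrying markers of astrocytes, precursors or other myeloid cells. Of the 157 called lower, 48, 76 and 67 were. Among the named genes described below, Cd80, H2-Ab1, Hist1h2be, Hspa1a and mt-Nd6 lost their call with cells paired by depth, and H2-Ab1, Galc and mt-Nd6 lost it with thinned cells. Fewer genes passed the filter on low counts in the restricted sets of cells, down to 6802 with thinned cells.

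Among called genes with at least 20 CPM in the group where they were higher (scaled by TMM, as are all levels below unless stated), the largest rise was that of Ckap2l, which encodes a mitotic spindle protein. It had 33.4, 36.5 and 45.6 CPM in the positive cells of libraries 1, 2 and 3 and 2.82, 6.97 and 6.53 CPM in the zero cells, a log2 fold change of 2.82 ± 0.25 (SE, edgeR adjusted p = 6.44e-15). The lowest positive value lay well above the highest zero value. Ckap2l lies on chromosome 2 at 129268210 to 129297212 (minus strand, mm10), 2398 bases past the 3′ end of Il1a on the same strand, and the part of this position in its value was not tested. The replication genes Mcm3 and Pcna, chosen after the values were seen, gave log2 values of 0.26 ± 0.19 and 0.25 ± 0.15 (SE) and were not called.

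Ptgs2, which encodes the prostaglandin-forming cyclooxygenase-2, had 29.5, 48.6 and 30.8 CPM in positive and 0.705, 5.42 and 10.9 CPM in zero cells (log2 fold change 2.67 ± 0.28, edgeR adjusted p = 3.18e-12). Tnfsf9, the ligand of the costimulatory receptor 4-1BB, had 49.2, 54.7 and 55.5 CPM in positive cells and 9.16, 6.97 and 10.9 CPM in zero cells. Neither gene overlapped between groups, and both were rare transcripts where the cytokines were not seen. Bcl2a1d, an anti-apoptotic relative of Bcl2, had 82.1, 94.5 and 74.8 CPM against 22.6, 11.6 and 10.2 CPM. It has near-identical copies among which reads may be split, so its level is uncertain. Tnfaip2, named for its induction by TNF, had 153, 178 and 232 CPM against 33.1, 30.2 and 47.9 CPM, a log2 fold change of 2.33 ± 0.11.

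Il1a, the gene of the second interleukin-1 cytokine and a neighbour of Il1b, was the most abundant of the 12 genes named as most raised. Its values were 846, 873 and 843 CPM in positive and 225, 244 and 221 CPM in zero cells, a 3.72-fold difference (log2 1.89 ± 0.05, edgeR adjusted p = 2.01e-41). The spread within either group was small beside the gap between them. The other 6 of the 12 were the MAP kinase phosphatases Dusp5 (log2 2.11) and Dusp2 (2.10), the small Maf factor Maff (1.95), the heparan sulphate proteoglycan Sdc4 (1.92), the stress-response gene Gadd45b (1.90) and the ARF-like gene Arl5c (1.90). The rule required 1 direction in all 3 libraries, so nothing is read from the lack of overlap of these 12 (21.6% of all tested genes did not overlap). DESeq2 called all 12.

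**Figure D2:**
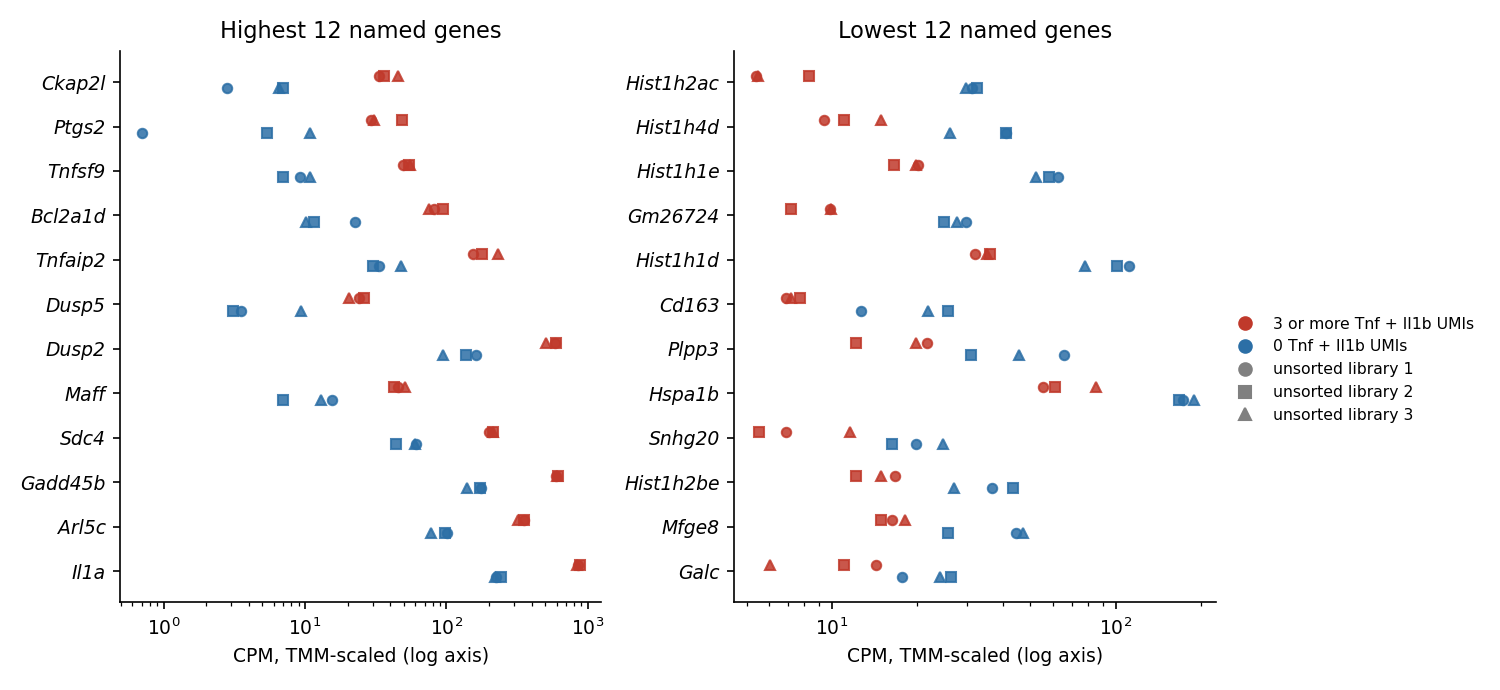
Levels in CPM (log axis, scaled by TMM) of the 12 called genes with the highest (left) and the 12 with the lowest (right) log2 fold change, 1 point per unsorted library (circle, square and triangle for libraries 1, 2 and 3) and group (red, 3 or more Tnf and Il1b UMIs; blue, 0). Red and blue points are apart for all 24 genes, with gaps that are wider for the raised genes such as Il1a than for Galc or Snhg20.

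Genes of the NF-κB pathway were called in part. Of the 25 tested subunits, inhibitors and kinases 10 were called higher and 0 lower, with a median log2 fold change of 0.31 against -0.01 over all tested genes. The 4 largest values were those of Nfkbia, Tnfaip3, Nfkbiz and Bcl3. Nfkbia, which encodes the inhibitor IκBα, had 4227, 4403 and 4103 CPM in positive and 1639, 1506 and 1440 CPM in zero cells (log2 1.47 ± 0.03, edgeR adjusted p = 5.65e-47). Tnfaip3, whose product A20 edits ubiquitin chains to end the signal, rose from 243 ± 43.0 to 863 ± 32.7 CPM (SD, n = 3). Nfkbiz, an atypical nuclear IκB, rose from 269 ± 12.5 to 891 ± 34.8 CPM. Bcl3, another atypical IκB, was called at low levels, 4.67 ± 1.01 against 14.1 ± 1.84 CPM. The groups did not overlap for any of these 4 genes. The other called members were the ubiquitin ligase gene Birc3 (log2 1.05), the IκB genes Nfkbid (1.02), Nfkbie (0.77) and Nfkbib (0.65) and the subunits Nfkb2 (0.95) and Rel (0.90). The subunits Rela (log2 0.31), Relb (0.36) and Nfkb1 (0.26) and the kinase genes Chuk (-0.16) and Ikbkb (-0.10) did not pass the limits of the call.

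Feedback regulators were called in 12 of 19 tested cases, all higher, with a median of 0.79. Dusp2, a phosphatase of nuclear MAP kinases, had 588, 595 and 505 CPM in positive against 163, 136 and 94.3 CPM in zero cells. Gadd45b had 595, 617 and 608 against 175, 172 and 139 CPM. Pde4b, a phosphodiesterase that breaks down cyclic AMP, had 96.8, 97.8 and 97.9 against 42.3, 29.4 and 34.8 CPM. No value of a positive cell sum fell within the range of the zero sums for these 3 genes.

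Immediate early transcription factors, which are induced without new protein synthesis, were called in 15 of 21 tested cases, all higher, with a median of 0.87. Fos had 2319, 2442 and 2381 CPM in positive and 1327, 1380 and 1316 CPM in zero cells (log2 0.83 ± 0.04), and Egr1 had 2333, 2420 and 2240 against 1110, 998 and 843 CPM (log2 1.25 ± 0.04). Neither gene overlapped between the groups. The background of these transcripts in the droplets was not measured. Nr4a1, an orphan nuclear receptor, rose from 211 ± 18.4 to 596 ± 37.7 CPM (SD, n = 3), and Csrnp1 and Egr3 rose by 1.45 and 1.32 on the log2 scale. Klf4 (-0.04) and Nr4a2 (0.04) were not called.

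Chemokines were called in 8 of 12 tested cases, all higher, with a median of 0.98, the highest of the 17 lists. Ccl4 and Ccl3, which attract leukocytes, were the most abundant of the named chemokines in both groups. Ccl4 had 3005, 3264 and 3155 CPM in positive and 1557, 1889 and 1451 CPM in zero cells (log2 0.95 ± 0.04). Ccl3 had 1965, 2268 and 2019 against 997, 1069 and 1049 CPM (log2 1.00 ± 0.04). Neither overlapped between the groups, and both remained abundant where Tnf and Il1b were not seen. The largest fold changes were those of rarer transcripts. Cxcl10, a ligand of CXCR3, had 144, 127 and 195 against 32.4, 48.8 and 55.9 CPM. Cxcl2, which attracts neutrophils, had 266, 354 and 297 against 86.7, 136 and 91.4 CPM. Ccl12 rose from 145 ± 20.2 to 369 ± 28.7 CPM (SD, n = 3). Ccl7 was called at 4.42, 15.5 and 14.8 against 6.34, 0.774 and 2.18 CPM, values that overlap between the groups, and its call was lost without library 2 or without library 3.

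**Figure D3:**
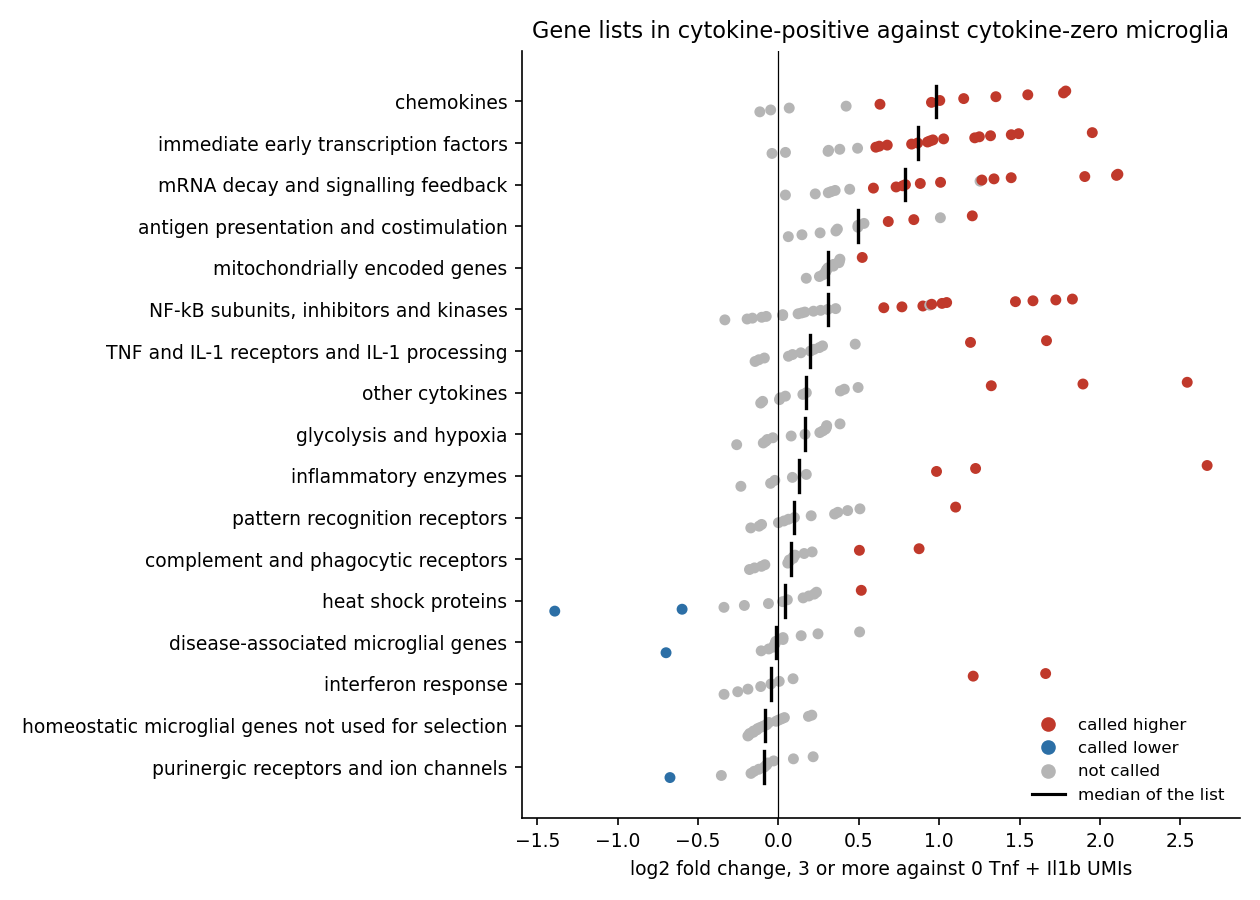
Log2 fold change of every tested gene in the 17 gene lists between cytokine-positive and cytokine-zero microglia, 1 point per gene (red, called higher; blue, called lower; grey, not called), with a black bar at the median of each list and lists ordered by it. Chemokines, immediate early factors and feedback regulators have medians of 0.98, 0.87 and 0.79, whereas homeostatic genes lie around 0 with 0 of 18 called, beside 4.54% of all tested genes.

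Other secreted factors moved in part. Of 13 tested cytokines beyond the pair that set the groups, 3 were called, all higher: Tnfsf9, Il1a and Csf1. Csf1, a ligand of the receptor on which microglia depend, had 118, 114 and 103 against 43.0, 34.1 and 56.6 CPM. Il6 (log2 0.50), Osm (0.39) and Tgfb1 (0.15) were not called. Among receptors of TNF and interleukin-1 and genes of interleukin-1 processing, 2 of 13 were called, both higher. They were Nlrp3, the sensor of an inflammasome, with 167, 184 and 168 against 67.0, 49.6 and 45.7 CPM, and Casp4, an inflammatory caspase, with 145, 148 and 165 against 64.1, 75.1 and 61.0 CPM. The TNF receptor genes Tnfrsf1a (-0.09) and Tnfrsf1b (0.06), the caspase gene Casp1 (0.20) and the sheddase gene Adam17 (0.09) did not pass.

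Among inflammatory enzymes 3 of 8 were called higher, Ptgs2, the tetrahydrobiopterin synthesis gene Gch1 (1.23 ± 0.23) and the urokinase receptor gene Plaur (0.98 ± 0.20). DESeq2 called Ptgs2 only of these. Among complement and phagocytic receptors 2 of 14 were called, the anaphylatoxin receptors C5ar1 (0.87) and C3ar1 (0.50). C3ar1 lay at the limit of the call and dropped under 0.5 with DESeq2, with library totals in place of TMM factors and without library 1. The complement genes C1qa (0.06), C1qb (0.10) and C1qc (0.07) were not called. Of 13 pattern recognition receptors 1 was called, Tlr2, with 134, 143 and 146 against 73.3, 64.3 and 58.8 CPM, whereas Tlr4 (-0.12) was not.

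The interferon list split. Irf1, a transcription factor also induced through NF-κB, had 249, 307 and 299.6 against 93.0, 97.6 and 79.1 CPM, and the ubiquitin-like Isg15 had 72.3, 60.8 and 58.8 against 23.3, 32.5 and 27.6 CPM. Both were called higher and the other 7 of the 9 tested members, among them Ifit3 (-0.05) and Ifitm3 (-0.19), were not. The median of the list was -0.05. For antigen presentation, 3 of 12 were called higher, with a median of 0.49. Cd74, the invariant chain of MHC class II, had 139, 98.3 and 90.2 against 39.5, 55.0 and 48.6 CPM. Cd80 and H2-Ab1 were called with overlapping values, and DESeq2 called neither.

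Homeostatic microglial genes not used for the selection were called in 0 of 18 cases by edgeR's quasi-likelihood test and in 0 of 18 by DESeq2, with a median of -0.09. By edgeR 4.54% of all tested genes were called, so 0 of 18, and the 1 of 12 and 0 of 13 below, lie near that share. P2ry13, an ADP receptor, had 353, 350 and 404 CPM in positive and 383, 426 and 425 CPM in zero cells. Its ranges overlapped, and within each library the positive value was the lower. Disease-associated microglial genes were called in 1 of 12 cases, Apoe, described below. Glycolysis and hypoxia genes were called in 0 of 13 cases, with a median of 0.17, or 0.03 with library totals. The 13 mitochondrially encoded genes all had log2 values above 0, from 0.17 to 0.52, of which mt-Nd6 was called. Their median was 0.31, or 0.17 with library totals, beside the higher mitochondrial share of positive cells given above.

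The genes lower in cytokine-positive cells were led by histone genes. Hist1h2ac, a histone H2A gene of the cluster on chromosome 13, had 5.41, 8.29 and 5.50 CPM in positive and 31.0, 32.5 and 29.8 CPM in zero cells, a log2 fold change of -2.28 ± 0.25 (edgeR adjusted p = 1.18e-11). The linker histone genes Hist1h1e and Hist1h1d had 20.2, 16.6 and 19.8 against 62.7, 58.1 and 52.2 CPM, and 31.9, 35.9 and 35.2 against 111, 101 and 77.6 CPM. Hist1h4d and Hist1h2be were also among the 12 genes most lowered. As a group picked after these values were seen, 12 of the 15 tested genes with symbols from Hist1h to Hist4h were called lower and all 15 had values below 0, with a median of -1.08. DESeq2 called 6 of these 12 lower and gave no adjusted p for 3 of them. The 8 tested replacement histone genes, whose transcripts carry a poly(A) tail outside replication, had 0 calls and a median of 0.15. Members of the histone clusters resemble and overlap each other, so how the counts divide among them is uncertain.

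Of 12 tested heat shock genes 2 were called lower and 1 higher, with a median of 0.04. Hspa1b, which encodes an inducible Hsp70, had 55.5, 60.8 and 85.2 CPM in positive and 172, 166 and 188 CPM in zero cells (log2 -1.39 ± 0.09, edgeR adjusted p = 8.12e-21). Its near-identical neighbour Hspa1a had 367, 361 and 343 against 519, 578 and 529 CPM, and reads may be split between the 2 genes. Hspa1a was not called with cells paired by depth. Hspa5, an Hsp70 of the endoplasmic reticulum, was called higher at 0.51 ± 0.05 but not with library totals. The other 9 of the 12 tested heat shock genes were not called, among them Hsp90aa1 (-0.34), Hsph1 (-0.21) and Dnajb1 (0.22).

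Some lowered genes are also known from cells other than microglia. Cd163, a haemoglobin scavenger receptor and a marker of border-associated macrophages, had 6.88, 7.73 and 7.15 CPM in positive and 12.7, 25.6 and 21.8 CPM in zero cells. Apoe, the apolipoprotein E gene, was called at -0.70 ± 0.10 with values of 2051, 1161 and 1300 against 1594, 2623 and 3150 CPM that overlap. It fell under the fold limit without library 2 or library 3, and DESeq2 did not call it. Without cells carrying any UMI of other myeloid markers Apoe was at 0.11 and not called, the opposite direction. Those cells were 7.27%, 5.67% and 3.54% of positive and 5.74%, 7.25% and 9.36% of zero cells in libraries 1, 2 and 3. Plpp3, a lipid phosphate phosphatase abundant in astrocytes, was called at -1.41 ± 0.17 and at -0.42 it was no longer called without cells carrying markers of astrocytes, precursors or other myeloid cells. Under the same restriction 9 of the 12 most lowered genes were still called, Cd163 being no longer tested because cells carrying it were left out, among them Mfge8 (-1.13), which encodes a bridge between phagocytes and dying cells. P2ry6, a UDP receptor tied to phagocytosis and the only called gene of 11 purinergic receptors and ion channels, had 111, 112 and 109 against 171, 208 and 152 CPM and was at -0.68 with the restriction. The noncoding genes Gm26724 (-1.60) and Snhg20 (-1.34) and the galactosylceramidase gene Galc (-1.09) completed the 12, and DESeq2 did not call Cd163, Snhg20 or Galc.

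Mean levels changed over the whole range of cytokine UMIs and not only at the limit. Whether single cells were graded or the classes mixed cells of different kinds was not tested. In microglia with 0, 1 to 2, 3 to 5, 6 to 9, 10 to 19 and 20 or more cytokine UMIs, Nfkbia stood at 1581, 2985, 3672, 3997, 4346 and 4833 CPM (means of 3 libraries, CPM of the sum without TMM factors). Il1a stood at 238, 472, 667, 771, 957 and 1226 CPM over the same classes. Hspa1b ran the other way, at 182, 123, 69.0, 61.6, 63.3 and 40.5 CPM. In Nfkbia and Il1a each step was upward on average, and the step from 0 to 1 or 2 UMIs was the largest for Nfkbia. Egr1 reached 2180 CPM at 3 to 5 UMIs and 2361 CPM at 20 or more, a difference within the spread between libraries at the top class (SD 338). P2ry13 went from 425 to 317 CPM between the end classes. These classes share the cells that set the groups and differ in depth, so the values are a description.

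**Figure D4:**
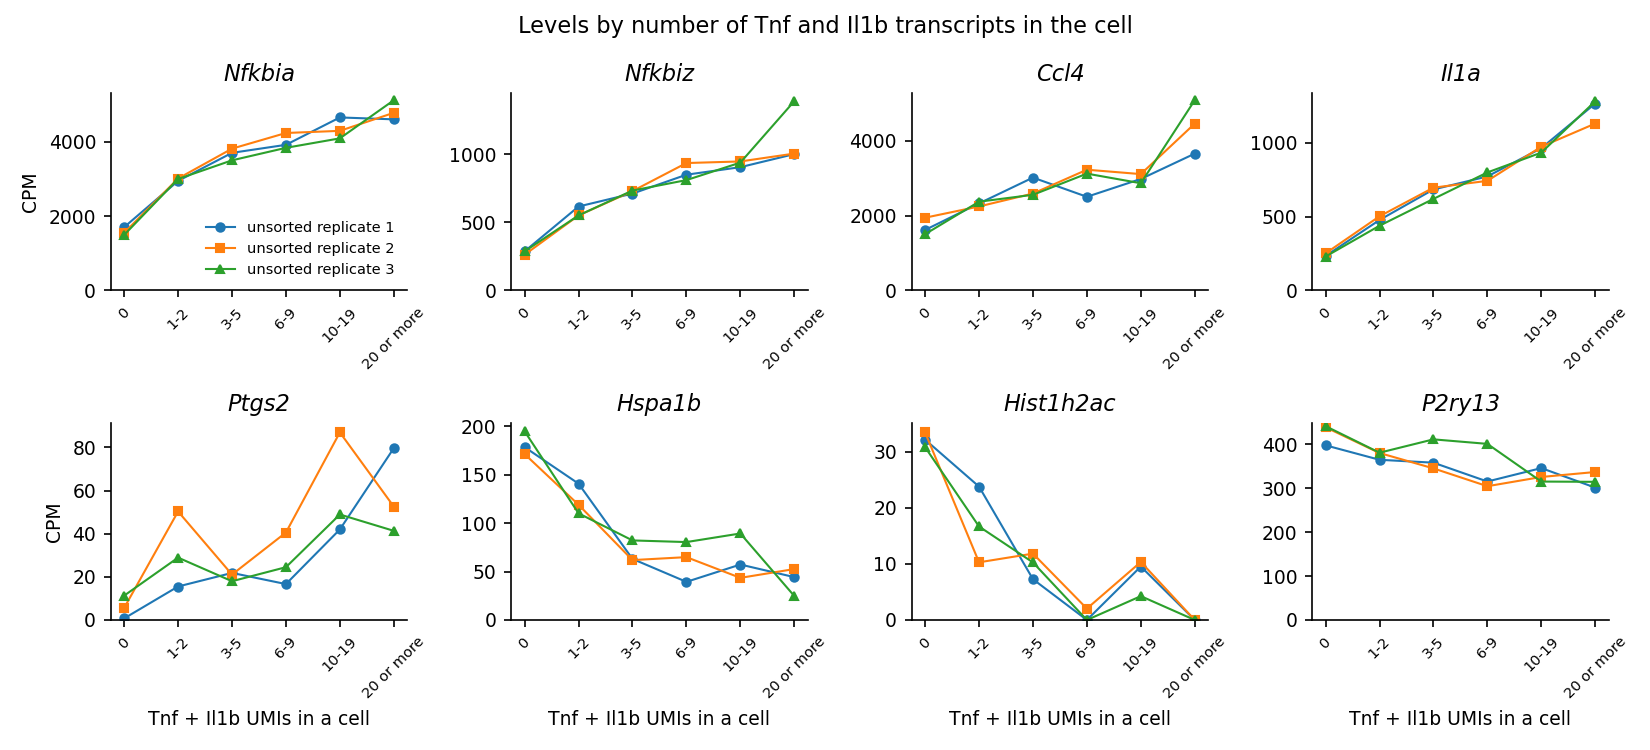
Levels of 8 genes in CPM of the summed cells (linear axes from 0) by the number of Tnf and Il1b UMIs in the cell, 1 line per unsorted library. Nfkbia, Nfkbiz, Ccl4 and Il1a climb over the classes, Hspa1b and Hist1h2ac fall, Ptgs2 scatters at low counts and P2ry13 declines from 425 to 317 CPM.

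The microglia outside both groups, with 1 or 2 cytokine UMIs, lay between them. Their level was between those of zero and positive cells for 237 of the 261 genes called higher (90.8%) and for 139 of the 157 called lower (88.5%), which is a description because the classes were cut from 1 range. Just outside and just inside the limit, cells with 2 UMIs (255 cells) and with 3 UMIs (219 cells) had 3272 ± 81.5 and 3512 ± 220 CPM of Nfkbia and 522 ± 27.2 and 564 ± 37.6 CPM of Il1a (SD, n = 3). The ranges over libraries overlapped for both genes. Tnfaip3 had 563 ± 34.8 and 706 ± 50.1 CPM, and its ranges did not overlap.

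Position near the cytokine genes was examined as a feature that the rule did not use. Within 100000 bases of Tnf, 13 genes were tested and 0 were called by edgeR, near the share of 4.54% over all tested genes. H2-D1 passed the adjusted p at a log2 fold change of 0.37 ± 0.05. Ltb, which lies 3061 bases from Tnf, was at 0.41 ± 0.26. Within the same distance of Il1b or Il1a, 2 of 3 tested genes were called, Il1a itself and Ckap2l. Both had already been named above as most raised, so this count is a description.

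In the promoters, the κB motif was present in 16 of the 190 called-higher genes with a sequence (8.42%), in 1.75% of the called-lower genes, in 1.68% of all tested genes and in 1.62% of all 27025 promoters. The NF-κB consensus was in 22.6%, 9.65%, 9.97% and 8.18% in the same order, and every one of these shares is a description of letters in a window. AP-1 matches were in 6.84% of called-higher promoters and 4.41% of those tested. Matches to TGACGTCA were in 5.26% and 3.62%. The match in Nfkbia lies 20 to 29 bases before the start.

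Whether the 2 cytokines marked the same state was asked within the positive cells. Tnf-led cells had 3 or more Tnf UMIs and at least 3 times as many as of Il1b, and numbered 678. Il1b-led cells were defined in the same way with the genes exchanged, and numbered 253. Of 6734 genes tested by edgeR's quasi-likelihood test, 23 were called (0.342%), 10 higher in Tnf-led (0.149%) and 13 higher in Il1b-led cells (0.193%). DESeq2 called 3, and without library 1 edgeR called 4. Of the inflammatory genes described above, Ccl3 (log2 0.10 ± 0.05, SE), Ccl4 (0.13 ± 0.05), Il1a (-0.14 ± 0.07) and Ckap2l (0.18 ± 0.27) were not called. Nfkbia (0.29 ± 0.04), Tnfaip3 (0.29 ± 0.07) and Nfkbiz (0.26 ± 0.07) passed the adjusted p but not the fold limit. The stress-response gene Gadd45b (0.58 ± 0.08), named after its value was seen, was called higher in Tnf-led cells, also by DESeq2.

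Genes higher in Tnf-led cells included Irf1, with 275, 311 and 296 CPM against 170, 194 and 194 CPM in Il1b-led cells (log2 0.66 ± 0.10, edgeR adjusted p = 0.000138). The choline kinase gene Chka had 117, 117 and 129 against 69.9, 39.7 and 73.9 CPM. Neither overlapped between the groups, but nor did 14.2% of all tested genes, so nothing is read from it. Tnfaip2 (0.68), the chemokine gene Ccl9 (0.59) and Gm13889 (1.06) completed the 5 named at this end. Without library 1 none of these 5 was called.

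The genes higher in Il1b-led cells were led by border-associated macrophage genes. Ms4a7 had 69.9, 24.8 and 33.9 CPM in Il1b-led and 2.82, 0 and 7.41 CPM in Tnf-led cells, and Mrc1, the mannose receptor gene, had 168, 81.9 and 43.1 against 7.51, 3.14 and 26.9 CPM. Pf4, F13a1 and Wfdc17 followed. Of these 5, Wfdc17 alone was still called without library 1. Cells with 5 or more UMIs of other myeloid markers were 6.06%, 3.53% and 1.45% of the Il1b-led and 0.426%, 0% and 1.32% of the Tnf-led cells. With every cell that had a UMI of such a marker left out, 19 genes were called, 15 higher in Tnf-led and 4 higher in Il1b-led cells. The 4 were Cd14, a coreceptor for lipopolysaccharide (-0.55 ± 0.10), the growth factor gene Ptn (-0.74 ± 0.19) and the transcription factors Ets2 (-1.04 ± 0.25) and Nr4a3 (-1.62 ± 0.35), all named after their values were seen. Among the 15 were Irf1, Chka and Tnfaip2, and also Cxcl2 (0.69), Sdc4 (0.68), Gadd45b (0.59), Ccl12 (0.54) and Ccl2 (1.14), which are named after their values were seen. Before any cells were left out Cxcl2 had the opposite direction, at -0.35 ± 0.11 (SE), and was not called. With cells carrying astrocyte or precursor markers left out beside those with other myeloid markers, 13 genes were called, 9 higher in Tnf-led cells. Among the 9 were Irf1, Chka, Tnfaip2, Cxcl2 (0.84), Sdc4 (0.72) and Gadd45b (0.65). The 4 higher in Il1b-led cells were then Cd14 (-0.51), Cd63 (-0.50), Tspan14 (-0.60) and Cysltr1 (-0.91), so Cd14 alone was common to both sets of 4.

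**Figure D5:**
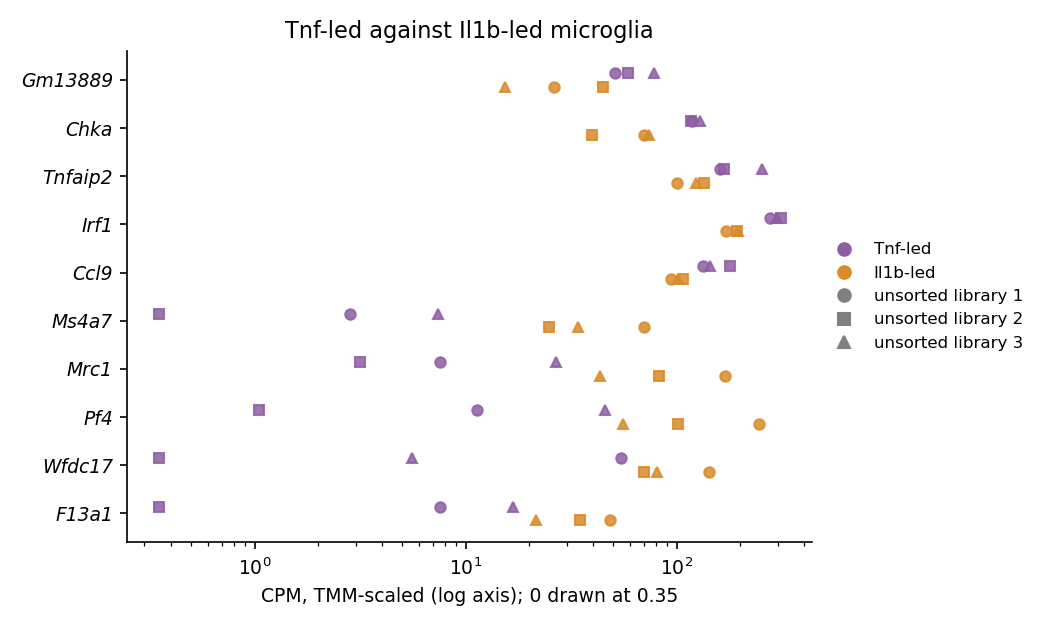
Levels in CPM (log axis, scaled by TMM, values of 0 drawn at the left edge) of the 5 called genes at each end of the comparison of Tnf-led (purple) with Il1b-led (orange) microglia, 1 point per unsorted library. The upper 5 are higher in Tnf-led cells by at most 1.06 on the log2 scale, and the lower 5, among them Mrc1 and Pf4, lie higher in Il1b-led cells and are widely scattered among the Tnf-led sums.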

How the data were processed

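The data are droplet single-cell RNA-seq counts of vmPFC cells from 3 unsorted libraries and 1 EGFP-sorted library. The deposited counts are whole UMIs per gene and cell, made by the authors with Cell Ranger 3.0.2 on mm10 with viral barcodes added, and not normalized. A deposited table listed the authors' excitatory neurons and served only to leave those cells out. The members and gene lists were chosen with earlier results of these data known.

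UMIs were summed per library and cell group, without Tnf, Il1b and the viral feature, which held 0.00110% of UMIs. Sums were tested with edgeR 4.0.16 (R 4.3.3) by the quasi-likelihood test with TMM scaling, filterByExpr and the library as a block, and p-values were adjusted by Benjamini-Hochberg over all genes tested. Both groups of a pair of sums came from the same library, so the library pairs them. Genes that selected the cells got no test. DESeq2 1.42.0 was the other tool. Cells were handled with Python 3.11.15, numpy 2.4.6, scipy 1.17.1 and pandas 2.3.3. The fit was tested on simulated data. No doublet caller was run, and only the limits on UMIs and on markers of other cells bear on doublets.

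Named genes were the 12 called genes with the highest and the 12 with the lowest log2 fold change that moved one way in 3 libraries and had at least 20 CPM on average in the higher group, 5 at each end for Tnf-led against Il1b-led cells, up to 4 called members of each list, and Ccl3, Ccl4, Nfkbia, Nfkbiz, Fos, Egr1, P2ry13 and Apoe. Alternatives changed the scaling, tool, filter, block, libraries, cell depth, mitochondrial limit, cytokine threshold and cells with other markers. The likelihood ratio test, library totals and the leaving out of cells with astrocyte or precursor markers were chosen after seeing the data. Gene coordinates are those of GENCODE M21, which matched 9204 of 9208 tested genes. Values of some genes are not reported here.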

Additional observations from a re-analysis of the deposited data

Results flagged for a closer look

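The EGFP-sorted library, which no comparison used, also held cytokine-positive microglia. Of its 58 microglia by the same rule, 31 had 3 or more Tnf and Il1b UMIs, a share of 53.4% (95% Wilson interval 40.8% to 65.7%, counting error only). These cells had a median of 7208.5 UMIs, against 4148 to 4429 in the unsorted libraries, and after thinning to 2000 UMIs the share was 25.9%, against 26.1% in the unsorted ones. With 1 library there is no test. Between its 31 positive and 15 zero cells, all 12 of the most raised genes were higher in the positive cells, Ptgs2 with 32 UMIs against 0 and Ckap2l with 18 against 1, and 5 of the 12 most lowered genes were lower. The positive cells held 233470 UMIs and the zero cells 100302. Most of the lowered genes had few UMIs, among them Hist1h2ac with 0 in both groups and Hist1h2be with 3 against 0. Ccl3 had 1109 CPM in positive and 1715 CPM in zero cells (259 and 172 UMIs), the opposite order to the unsorted libraries, and Ccl4 had 1169 and 1176 CPM.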

How the results depend on the processing

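The 418 calls between cytokine-positive and cytokine-zero cells became 150 with DESeq2, 129 with groups set by Il1b alone and 342 to 388 without 1 library. Without the library as a replicate block 333 genes were called. The 23 calls between Tnf-led and Il1b-led cells became 3 with DESeq2, 10 with thinned cells and 10 with the mitochondrial limit of 10%. They became 13 without cells with markers of astrocytes, precursors or other myeloid cells, 4 to 34 without 1 library and 16 without the block. Some of these calls were not among the 23. The share of positive microglia was 43.6% with at least 10 microglial UMIs, 42.0% under 10% mitochondrial UMIs, 40.3% without astrocyte-marker cells, 26.1% thinned, and 64.3% and 12.8% at limits of 1 and 10 UMIs. Apoe reversed to 0.11 without other myeloid cells, 0.41 without all cells with other markers and 0.24 by Il1b alone, and P2ry13 to 0.037 with cells paired by depth. The cause of these changes was not tested. Of 58 named genes called in the first comparison 34 kept direction and call under every alternative that gave them an adjusted p, and of 10 in the second 0 did. Alternatives that did not test a gene were not counted for it. Low counts limit genes such as Ccl7, and 3 libraries limit all error estimates.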
